A study of Mus musculus with 6 samples.

Results

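Mouse C2C12 myoblasts, an established line whose cells fuse to multinucleated myotubes once serum is reduced, were compared between growth in 10% FBS (fetal bovine serum) and differentiation medium with 0.2% FBS to which exosomes isolated from FBS had been added. The comparison asks what still separates exosome-treated cells in low serum from growing cells. Its members are set by their treatment labels and are 3 of the 6 mRNA libraries of the series, 1 of growing cells and 2 of 0.2% FBS + exosome (replicates 1 and 2). The other 3 libraries, 0.2% FBS, 2% HS (horse serum) and 2% HS + exosome, are given beside them where they help. Growing cells received normal FBS. The low-serum cultures were grown in 10% FBS to below confluence, switched to 0.2% FBS in DMEM and given exosomes in about the amount that 10% FBS contains. The exosome fractions came from commercial precipitation kits, and the kit used for the sequenced cultures is not given in the sources used here. Serum level and the added fraction thus differ together between the groups and cannot be told apart. Time in culture may differ with them, but the harvest time of the sequenced cultures is not given in the sources used here. C2C12 is a single cell line and not muscle tissue.

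A differentiating myoblast switches on myogenin, leaves the cell cycle with a fall in the genes of mitosis, and makes the proteins of the contractile apparatus. Serum keeps myoblasts cycling, and lowering it starts this programme. Exosomes are small vesicles with lipids, proteins and RNA that cells take up, largely into endosomes and lysosomes, the compartments that degrade and recycle cargo.

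The deposited values are FPKM, numbers of reads scaled by the length of the transcript and by the mapped reads of the library. Differences are given as log2(FPKM + 1) of an exosome library minus that of the 10% FBS library, a scale that understates the difference of low genes. Genes averaging 1 FPKM or more over all 6 libraries were tested, 10726 in number. The sums of FPKM per library lay between 461439 and 515215. Depth, estimated from the spacing of low values, lay between 33700000 and 39400000 reads, with 39400000 for 10% FBS and 35100000 and 33700000 for replicates 1 and 2. Growing cells have 1 library, so the spread between growing cultures is unknown, and both exosome differences share that library. Nothing in the labels says whether the exosome libraries came from separate cultures. Defining transcripts of the line were present, with Myod1 at 83.7 FPKM in 10% FBS and 87.6 and 101 FPKM in the exosome libraries, and Des at 630, 559 and 543 FPKM. The growing library already held transcripts of differentiation, with Myog at 512, Mylpf at 3306 and Acta1 at 2034 FPKM, so it is no baseline free of them.

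The libraries lay close together. The mean difference was smaller than 0.5 in size for 9914 genes (92.4%), and the median over all genes tested was 0.04 (0.00 in replicate 1 and 0.07 in replicate 2). The SD between the replicates had a median of 0.10 and a 90th percentile of 0.28. Replicate 2 was the higher of the pair in 63.6% of all genes tested and replicate 1 in 36.4%. A gene was called where its difference passed 1 or −1 in each exosome library. By this rule 22 genes (0.205% of those tested) were higher and 1 gene (0.00932%) was lower than in 10% FBS, and 0 genes passed in opposite directions. Replicate 1 alone gave 66 higher and 26 lower genes, and replicate 2 alone gave 100 and 9. For 0.2% FBS without exosomes against the same 10% FBS library the counts were 192 higher and 74 lower. The split depends on the scale and on the scaling between libraries. A pseudocount of 0.1 in place of 1 gave 52 higher and 24 lower genes, and values under 1 FPKM raised to 1 with no pseudocount gave 44 and 23. With each library scaled to the same 75th percentile it was 20 higher and 7 lower (74.1% higher in place of 95.7%), and with median-of-ratios scaling it was 20 and 4 (83.3%). In a limma fit with 1 mean per condition and Benjamini-Hochberg adjustment, 6 genes (0.0559%) were higher and 1 (0.00932%) was lower at an adjusted p under 0.05. The fit has 1 residual degree of freedom, from the replicates, and assumes that growing cultures vary as these do. Its counts depend on the setting, with 25 higher and 11 lower genes under 75th percentile scaling, and 1 higher gene under median-of-ratios scaling or without the mean-variance trend. With values under 1 FPKM raised to 1, or with no filter on low values, 0 genes were called in either direction. At an unadjusted p under 0.05 it gave 834 higher genes (7.78%) and 398 lower genes (3.71%).

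**Figure D1:**
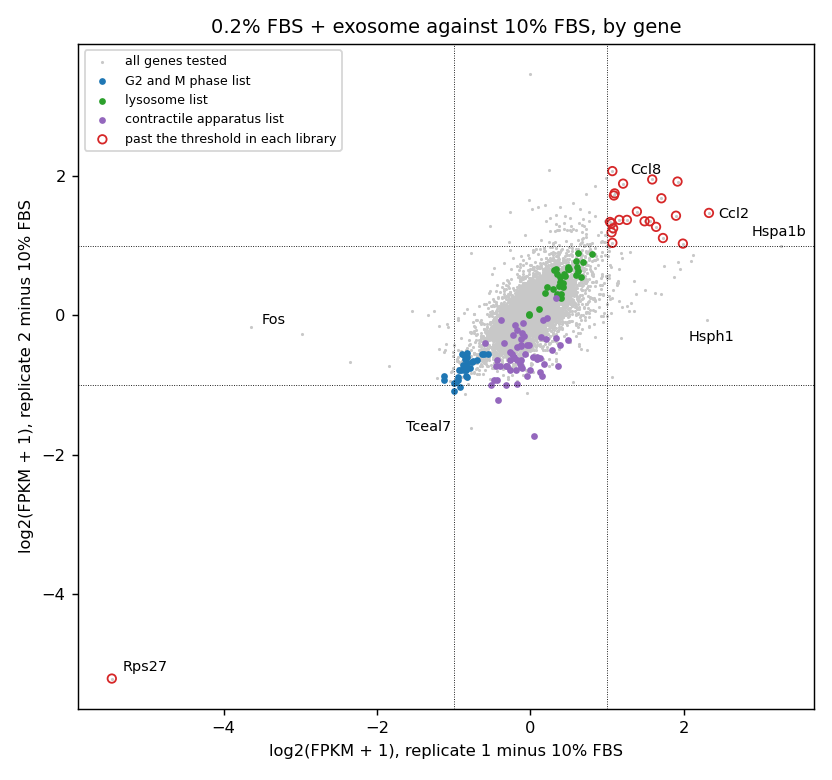
Difference in log2(FPKM + 1) from the 10% FBS library for replicate 1 (x axis) and replicate 2 (y axis) of 0.2% FBS + exosome, 1 point per gene tested, with 3 gene lists in colour. Dotted lines mark −1 and 1, and red circles mark the 22 genes higher and the 1 gene lower past these lines in each library. Both axes subtract the same 10% FBS library.

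The genes higher with exosomes than in growing cells were led by chemokines. Ccl8, a chemokine that draws monocytes, was at 7.2 FPKM in growing cells and 30 and 30.1 FPKM in replicates 1 and 2. Its difference was 1.92 in each replicate (SE 0.16, limma adjusted p = 0.00675), the lowest adjusted p among the higher genes. In 0.2% FBS without exosomes it was at 7.68 FPKM, close to the growing cells, and in 2% HS and 2% HS + exosome at 19 and 22.3 FPKM. Both exosome libraries were thus above all other 4.

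Ccl2, the main monocyte chemokine, was at 14.8 FPKM in growing cells and 78.6 and 42.9 FPKM with exosomes. The differences of 2.33 and 1.47 (SD 0.61, n = 2) had a limma adjusted p of 0.112. Ccl7, a related monocyte chemokine, was at 13.2, 40.6 and 35.1 FPKM in the same libraries, a mean difference of 1.45 (SD 0.15, n = 2, limma adjusted p = 0.0324). The replicates of Ccl2 differed more from each other than those of Ccl7 and Ccl8, but each lay above the other 4 libraries. The 3 genes are neighbours on chromosome 11, with RefSeq positions on GRCm38.p6 (the mm10 build) of chr11:82035577-82037452 for Ccl2, chr11:82045712-82047525 for Ccl7 and chr11:82115185-82116799 for Ccl8.

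A list of 19 tested genes of the inflammatory response had 12 members higher and 2 lower in each exosome library, against 42.0% and 31.0% of all genes tested. Its median difference was 0.42 (0.29 and 0.54), against 0.04 for all genes, but with no filter, which adds members near 0, it was 0.09. Other members were below the threshold. Cxcl12, a chemokine of stromal cells, was at 7.01, 13.1 and 13.7 FPKM. Vcam1, a receptor for leukocytes that myoblasts also carry, was at 39.3, 51.6 and 65.7 FPKM. Csf1, the growth factor of macrophages, was at 31.1, 58.9 and 38.6 FPKM. Ptgs2, which makes prostaglandins, lay lower in each, with 14.1 FPKM in 10% FBS and 11.8 and 10.2 FPKM with exosomes.

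Genes of the interferon response lay higher as well. Of 19 tested members 18 were higher and 1, Ifit2, was lower in each exosome library, against 42.0% and 31.0% of all genes. The median was 0.52 (0.54 and 0.47), and it was 0.34 with no filter and 0.80 with a minimum mean of 10 FPKM. The median for 0.2% FBS without exosomes against the same library was −0.13, and it was 0.37 for 2% HS and 0.67 for 2% HS + exosome. B2m, the light chain of MHC class I, was at 459 FPKM in 10% FBS and 808 and 948 FPKM with exosomes, and at 445 FPKM in 0.2% FBS alone. H2-D1, an MHC class I heavy chain, was at 37.3, 74.8 and 78.7 FPKM in the 3 libraries compared. Ifitm3, which blocks virus entry from endosomes, was at 338, 468 and 630 FPKM. In these genes both exosome libraries lay above 10% FBS and above 0.2% FBS. Over the list, 7 of 19 members had both exosome libraries above the other 4, against 27.8% of all genes. Among the 4507 genes higher in each exosome library, as 18 of the 19 were, 2986 had both above the other 4. Differences past 0.5 in each library were found for 8 of 19 members, against 2.71% of all genes. None of the 19 passed the fold rule or an adjusted p of 0.05, and 9 had an unadjusted limma p under 0.05, against 7.78% of all genes higher at that p. Ifi27l2a, a gene induced by interferon that was not on the list, passed the fold rule with 9.89, 29.7 and 26.7 FPKM (mean difference 1.42, SD 0.10, n = 2, limma adjusted p = 0.032). It stood at 32.1 FPKM in 2% HS, above both exosome libraries. Lgals3bp, a secreted glycoprotein that binds galectin-3, passed with 20.1, 49.3 and 53.3 FPKM (mean difference 1.31, SD 0.08, n = 2), and C1ra, a protease that starts the complement cascade, with 10.1, 22.2 and 21.8 FPKM. C1ra shares 42.4% of its 75-base stretches with C1rb and Gm18840, so its reads may be split among copies.

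**Figure D2:**
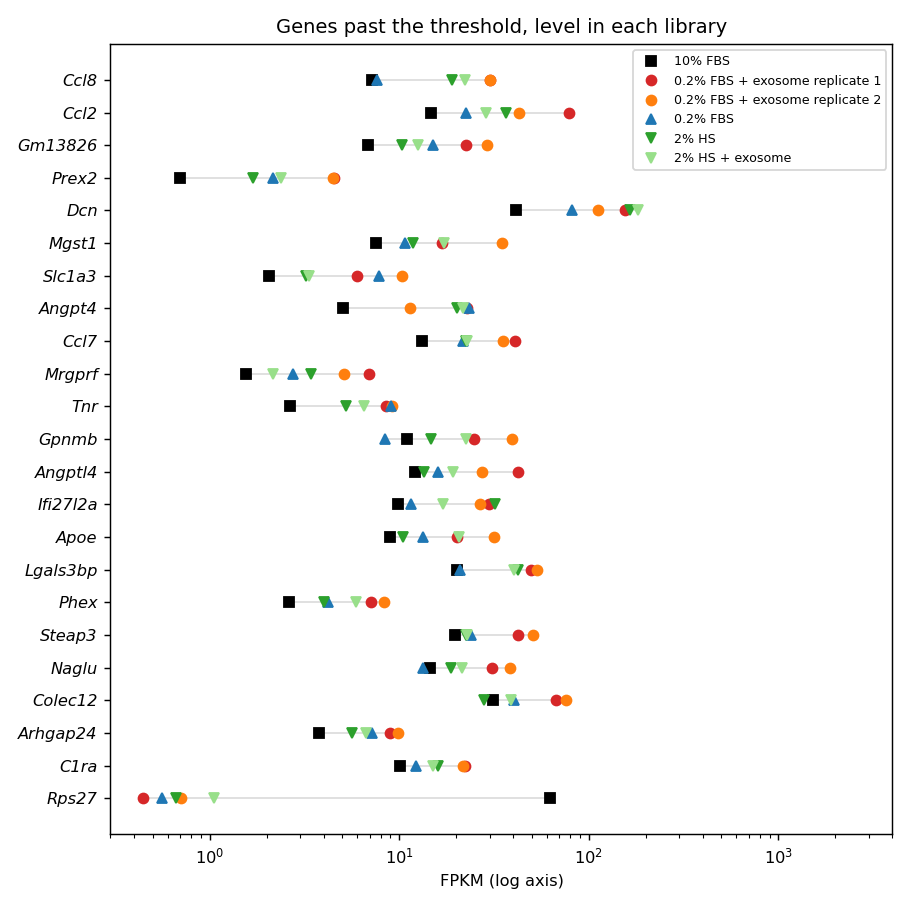
Level in FPKM (log axis) of the 23 genes past the threshold in each exosome library, in all 6 libraries. Black squares are 10% FBS, red and orange circles are replicates 1 and 2 of 0.2% FBS + exosome, and triangles are the 3 libraries outside the comparison. Rps27 is the gene whose black square lies to the right.

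Other called genes are given here by role, which was not tested as a theme. Apoe, an apolipoprotein that helps carry cholesterol out of cells, was at 8.96 FPKM in growing cells and 20.2 and 31.7 FPKM with exosomes. Its differences were 1.09 and 1.72 (SD 0.44, n = 2). Gpnmb, a glycoprotein of lysosomes and melanosomes, was at 11 FPKM against 24.8 and 39.4 FPKM, with 8.46 FPKM in 0.2% FBS alone. Naglu, a lysosomal enzyme that breaks down heparan sulphate, was at 14.6 FPKM against 31 and 38.4 FPKM, with 13.4 FPKM in 0.2% FBS alone. Gpnmb and Naglu were the only called higher genes that were lower in 0.2% FBS than in 10% FBS, and the other 20 were higher there.

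Colec12, a scavenger receptor that takes up modified lipoproteins, was at 31.2, 66.8 and 75.7 FPKM. Steap3, the endosomal ferrireductase of the transferrin cycle, was at 19.7, 42.1 and 50.8 FPKM. Angptl4, an inhibitor of lipoprotein lipase, was at 12.1, 42.4 and 27.2 FPKM. For each of these 3 genes both exosome libraries lay above the other 4. The list of lipid uptake and oxidation, which holds Angptl4, was near the background, with 8 of 18 tested members higher (44.4%) and 6 lower (33.3%) in each and a median of 0.08. Of 6 tested targets of the liver X receptors, which sense oxidised sterols, 5 were higher in each exosome library and 0 lower, against 42.0% and 31.0% of all genes. Their median difference was 0.58 (0.42 and 0.75), against −0.01 for 0.2% FBS alone. With no filter, which adds the 5 members left out for low values, the median was 0.29. Apoe passed the fold rule. Pltp, which moves phospholipid between lipoproteins, fell just short with differences of 0.99 and 1.16 (40.6, 81.8 and 91.9 FPKM).

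The lysosome list showed the same direction in nearly all members. Of 31 tested members 29 were higher and 0 lower in each exosome library, against 42.0% and 31.0% of all genes, and the median difference was 0.47 (0.41 and 0.55). In 24 of 31 both exosome libraries lay above the other 4, against 27.8% of all genes. Among the 4507 genes higher in each exosome library, as 29 of the 31 were, 2986 had both above the other 4. Grn, the precursor of granulins in lysosomes, was at 125 FPKM in 10% FBS, at 219 and 232 FPKM with exosomes and at 101 FPKM in 0.2% FBS. Ctsb, the protease cathepsin B, was at 326 FPKM against 501 and 608 FPKM, and at 242 FPKM in 0.2% FBS. Ctsd, the protease cathepsin D, was at 448 FPKM against 690 and 693 FPKM, with 544 FPKM in 0.2% FBS. The exosome libraries were above both the growing and the exosome-free library in these genes.

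The other 2 members were Scarb2, a membrane protein of lysosomes, and Ctsl, cathepsin L, which was at 554, 547 and 555 FPKM (mean difference −0.01, SD 0.02, n = 2). Among the most abundant members, Cd63, a tetraspanin of late endosomes and exosomes, was at 1650, 2212 and 2266 FPKM, and Psap, the precursor of the saposins, at 677, 951 and 1074 FPKM. No member passed the fold rule or an adjusted limma p of 0.05, and 17 of 31 had an unadjusted p under 0.05, all of them higher, against 7.78% of all genes. Differences past 0.5 in each library were found for 8 of 31 members, against 2.71% of all genes. Medians of the same list for the other libraries against the same 10% FBS library were −0.18 for 0.2% FBS, 0.14 for 2% HS and 0.10 for 2% HS + exosome. After scaling to the same 75th percentile, 28 members were higher and 2 lower in each library. Of 19 tested genes of exosome biogenesis and tetraspanins, 14 were higher and 2 lower in each, against 42.0% and 31.0% of all genes, with a median of 0.24 (0.17 with no filter or with 75th percentile scaling). None of the 19 passed the fold rule or an adjusted p of 0.05. Tspan4, a tetraspanin, had the largest difference of these, at 33.8, 65.6 and 64.2 FPKM (mean 0.92, SD 0.02, n = 2).

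Many lysosomal genes carry the CLEAR element of the factor TFEB, whose core is CACGTG. The core was found in the RefSeq promoters (250 bases before to 50 after the start, GRCm38.p6) of 8 of 22 lysosome genes with an entry (36.4%), against 8.09% of 27025 genes with a promoter in the table. Among the genes tested that have an entry the share was 12.2%. The full CLEAR element, a longer palindrome around the core, was in 0 of 22 lysosome promoters, against 0.37% of all genes and 0.9% of the genes tested. Both strands were searched, and this motif was picked with the values known. The windows below show the core in capitals, 5′ to 3′ on the gene's strand, for 3 members, picked from those with the core upstream of the start to show its context. The core also lies upstream in Lamp1, Gla, Atp6v0d1 and Ctsl, and the level of Ctsl hardly differed. A match is a description of the letters and not a binding site.
Ctsd, chr7:142387908-142387937, minus strand, core at −98: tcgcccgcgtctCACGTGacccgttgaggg
Glb1, chr9:114401018-114401047, plus strand, core at −48: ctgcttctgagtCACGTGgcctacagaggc
Mcoln1, chr8:3500462-3500491, plus strand, core at −45: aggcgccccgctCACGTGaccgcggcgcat

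The only gene called lower was Rps27, a protein of the small ribosomal subunit that has near-identical copies. Rps27 was at 62.5 FPKM in growing cells and 0.444 and 0.71 FPKM with exosomes (mean difference −5.34, SD 0.17, n = 2, limma adjusted p = 2.15e-05). It was also at or near that low level in the other 3 libraries, with 0.559 FPKM in 0.2% FBS, 0.667 in 2% HS and 1.05 in 2% HS + exosome, so the 10% FBS library stood apart from all 5. The copy Rps27rt was at 2333, 2058 and 2972 FPKM in the 3 libraries compared, and 24.6% of the 75-base stretches of Rps27 also occur in it or other copies. The sum of Rps27 and Rps27rt differed by −0.22 and 0.31 in replicates 1 and 2, where the medians of the other ribosomal genes were −0.21 and 0.19. Rps27 held 2.61% of that sum in 10% FBS and 0.0216% to 0.0634% in the other libraries. How reads were divided between the copies was not tested.

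A second ribosomal entry, Gm13826 (Rpl37rt in RefSeq), was called higher with 6.82, 22.5 and 29.2 FPKM (limma adjusted p = 0.0307). It shares 36% of its stretches with Rpl37 or Gm4468, and its sum with Rpl37 differed by −0.11 and 0.31. The other 40 cytosolic ribosomal protein genes beside Rps27 had mean differences from −0.22 to 0.56, with medians of −0.21 in replicate 1 and 0.19 in replicate 2. All 41 were higher in replicate 2 than in replicate 1, against 63.6% of all genes.

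Genes of cell division were lower with exosomes, although single genes such as Fos, Egr1 and Tceal7 had lower mean differences. All 30 genes of the G2 and M phase list were lower in each exosome library than in growing cells, against 31.0% of all genes tested, and all 30 passed −0.5 in each, against 1.29%. Of the 138 genes that passed −0.5 in each library, 30 are on the G2 and M phase list and 1 is on the S phase list. These lists hold 30 and 28 of the 10726 genes tested. The median difference was −0.79 (−0.85 and −0.76), and single members ranged from −1.04 for Kif11 to −0.55 for Cdc25c. The list kept this direction in all 30 members under both other scalings, with medians of −0.85 and −0.83. These scalings moved the median gene by only −0.064 and −0.044, so members past −0.5 could not change direction. Every member had an unadjusted limma p under 0.05, against 3.71% of all genes lower at that p. None had an adjusted limma p under 0.05.

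Kif11, the motor that separates the spindle poles, was at 7.22 FPKM in growing cells and 3.12 and 2.89 FPKM with exosomes (limma adjusted p = 0.112). Ccnb1, cyclin B1, which starts mitosis, was at 11.5 FPKM against 4.78 and 5.59 FPKM. Top2a, the topoisomerase that untangles chromosomes, was at 24 FPKM against 12.2 and 11.2 FPKM. Each of these 3 lay just short of the fold rule in at least 1 library. With scaling to the same 75th percentile, Kif11, Ccnb1, Ccna2, Nusap1, Arhgap11a and Hmgb2 joined Rps27 as lower past the threshold in each library.

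Ube2c, which marks cyclins for destruction, was at 25.2 FPKM against 12.8 and 14.2 FPKM, and at 10.3 FPKM in 0.2% FBS alone. Cdk1, the kinase that drives entry into mitosis, was at 13.5 FPKM against 7.21 and 7.55 FPKM, and at 7.45 FPKM in 0.2% FBS alone. Mki67, the proliferation antigen Ki-67, was at 10.6 FPKM against 5.04 and 5.1 FPKM, and at 5.58 FPKM in 0.2% FBS alone. The median of the list for 0.2% FBS without exosomes was −0.78, close to the values with exosomes, and it was −0.24 for 2% HS and −0.66 for 2% HS + exosome, all against the same 10% FBS library. In 12 of 30 members both exosome libraries lay below the other 4. Among the 3324 genes lower in each exosome library, as all 30 were, 1353 had both below the other 4.

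**Figure D3:**
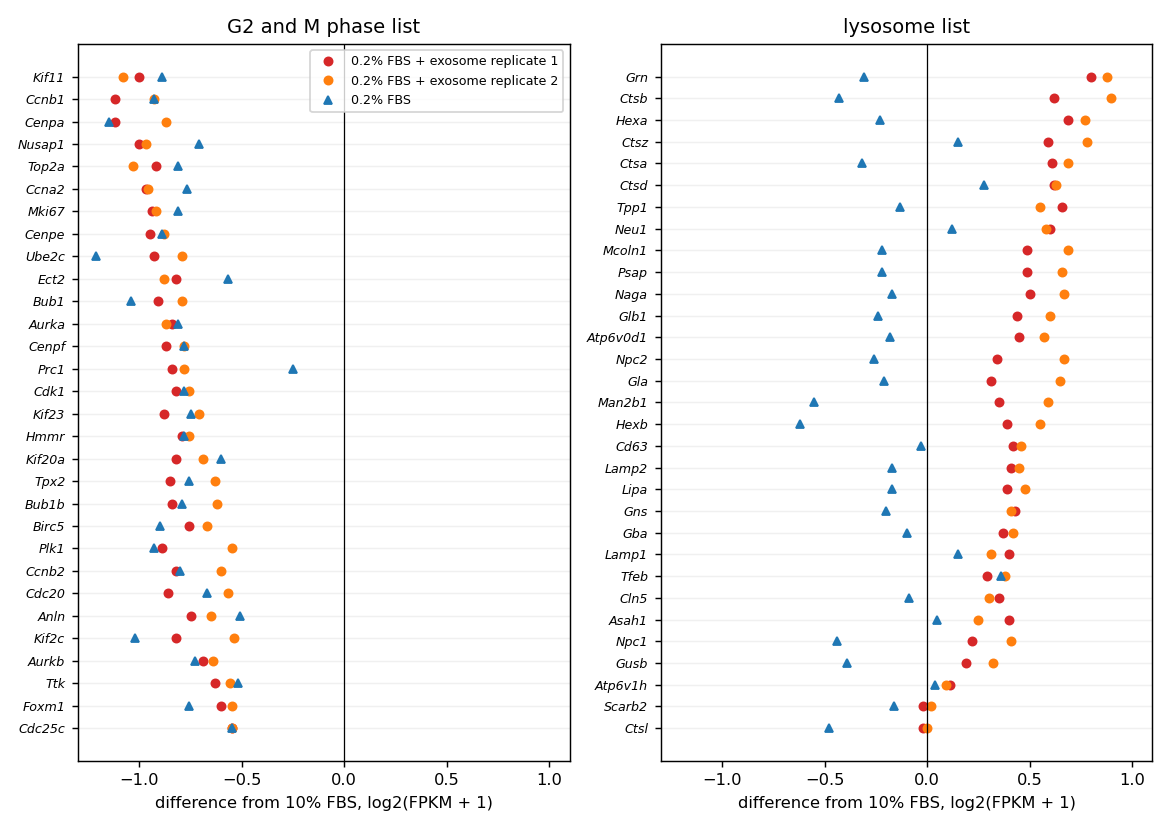
Difference from the 10% FBS library in log2(FPKM + 1) for each tested gene of the G2 and M phase list (left) and of the lysosome list (right). Circles are replicates 1 and 2 of 0.2% FBS + exosome and triangles are 0.2% FBS without exosomes. The mitotic genes lie to the left of 0 with and without exosomes, and the lysosome genes lie mostly to the right with exosomes and mostly to the left without.

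Mitotic promoters often hold a CCAAT box and, near the start site, the cell cycle homology region, searched as TTTGAA. This motif was found in the promoters of 19 of 24 G2 and M genes with a RefSeq entry (79.2%), against 20.2% of all genes in the table and 13.8% of the genes tested that have an entry. CCAAT was found in 20 of 24 (83.3%), against 41.1% of all genes. Both stood in 1 promoter for 17 of 24 (70.8%), against 7.97%. For the S phase list the share was 13% with TTTGAA and 60.9% with CCAAT, and for the sterol synthesis list it was 5.56% and 94.4%, so the CCAAT box was common outside the mitotic genes too. Both strands were searched, and these motifs too were picked with the values known. Of the 19 matches 8 begin before the start site and 11 after it, from −103 to 41. The windows give 5 of the promoters, picked from the matches that lie shortly before the start, 5′ to 3′ on the gene's strand, with the motif (or TTCAAA, its reverse complement) in capitals and its first base counted from the start site.
Cdk1, chr10:69352910-69352939, minus strand, at −15: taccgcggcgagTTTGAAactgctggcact
Cdc20, chr4:118437344-118437373, minus strand, at −18: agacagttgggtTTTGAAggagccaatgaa
Kif11, chr19:37376351-37376380, plus strand, at −19: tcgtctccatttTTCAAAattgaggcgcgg
Top2a, chr11:99024195-99024224, minus strand, at −23: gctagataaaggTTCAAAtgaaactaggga
Ube2c, chr2:164769888-164769917, plus strand, at −29: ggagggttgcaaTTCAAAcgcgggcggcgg

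Genes of S phase differed less. Of 28 tested members 18 were lower in each exosome library and 3 higher, against 31.0% and 42.0% of all genes, with a median of −0.23 (−0.27 and −0.15). Rrm2, a subunit of the reductase that makes deoxynucleotides, was at 30.4 FPKM in growing cells and 20.6 and 23.6 FPKM with exosomes, but at 50.5 FPKM in 0.2% FBS alone. Pcna, the sliding clamp of replication, was at 64.5, 61.5 and 64.6 FPKM (mean difference −0.03, SD 0.05, n = 2). E2f1, a transcription factor of the entry into S phase, lay higher, at 6.42, 8.91 and 8.33 FPKM.

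Cyclin D1 and the CDK inhibitors lay nearer to their levels in growing cells than Ccnb1 or Cdk1. Ccnd1, cyclin D1, which couples growth signals to the cycle, was at 11.6 FPKM in 10% FBS, at 9.24 and 11.2 FPKM with exosomes and at 6.96 FPKM in 0.2% FBS. Cdkn1a, the inhibitor p21, was at 536, 486 and 444 FPKM, with 1009 FPKM in 0.2% FBS alone. Cdkn1b, the inhibitor p27, was at 20.6, 20.5 and 24.8 FPKM. Over 22 tested CDK inhibitors and targets of p53, 6 were higher (27.3%) and 10 lower (45.5%) in each exosome library, against 42.0% and 31.0% of all genes, with a median of −0.07. Cdkn2a was listed at 0 in all 6 libraries.

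Contractile genes lay mostly at or below the growing level with exosomes. Of 59 tested members 41 were lower in each exosome library and 1, Cacng1, was higher in each, against 31.0% and 42.0% of all genes, and the median difference was −0.34 (−0.12 in replicate 1 and −0.60 in replicate 2). The medians of the same genes against the same 10% FBS library were 1.14 for 0.2% FBS, 1.09 for 2% HS and 1.09 for 2% HS + exosome. In 40 of 59 members both exosome libraries lay below the other 4, growing cells included, against 12.6% of all genes. Among the 3324 genes lower in each exosome library, as 41 of the 59 were, 1353 had both below the other 4. The replicates were not alike, since replicate 1 was the higher of the 2 in 56 of 59 members, against 36.4% of all genes. No member passed the fold rule or an adjusted limma p of 0.05.

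Mylpf, a fast myosin light chain, was at 3306 FPKM in 10% FBS, at 2740 and 2118 FPKM with exosomes and at 8128 FPKM in 0.2% FBS. Myh3, the embryonic myosin heavy chain, was at 738 FPKM against 713 and 404 FPKM, and at 1604 FPKM in 0.2% FBS. Acta1, skeletal actin, was at 2034 FPKM against 2335 and 1610 FPKM, so that the replicates lay on either side of the growing library. Ankrd2, a stretch-responsive protein of the sarcomere, showed the widest split, with 49.7 FPKM in 10% FBS and 51.4 and 14.3 FPKM with exosomes. Cacng1, a calcium channel subunit of muscle, was at 222, 279 and 263 FPKM.

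Among the other markers of differentiation, Ckm, muscle creatine kinase, was at 356 FPKM in 10% FBS and 392 and 288 FPKM with exosomes, against 734 FPKM in 0.2% FBS. Tmem8c (myomaker), the membrane protein of myoblast fusion, was at 349, 486 and 327 FPKM, against 1036 FPKM in 0.2% FBS. Myh1 was at 12.2, 11.8 and 8.79 FPKM and Myh7 at 24.7, 22.8 and 18 FPKM, both adult myosin heavy chains. For Ckm and Tmem8c the growing library lay between the replicates, and for Myh1 and Myh7 it lay above both.

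Among the regulators, Myog, which drives terminal differentiation, was lower with exosomes than in growing cells, at 512 FPKM against 350 and 401 FPKM (mean difference −0.45, SD 0.14, n = 2, limma adjusted p = 0.639). Myod1 differed by 0.07 and 0.27 at the FPKM given above, and Myf5, a factor of proliferating myoblasts, was at 12.2, 10.1 and 12.9 FPKM with 5.39 FPKM in 0.2% FBS alone. Pax7, the factor of muscle stem cells, was below the limit of 1 FPKM, at 0.529, 0.521 and 0.623 FPKM. Of 19 tested myogenic regulators 4 were higher (21.1%) and 7 lower (36.8%) in each, against 42.0% and 31.0% of all genes, with a median of −0.13. Tceal7 and Tceal5, relatives of a transcription elongation factor, were below the growing level too. Tceal7 was at 19.2 FPKM against 10.7 and 5.64 FPKM (differences −0.78 and −1.61, SD 0.58, n = 2, limma adjusted p = 0.198), and Tceal5 at 2.43 FPKM against 1.11 and 1.12 FPKM (−0.70 and −0.69, limma adjusted p = 0.198).

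**Figure D4:**
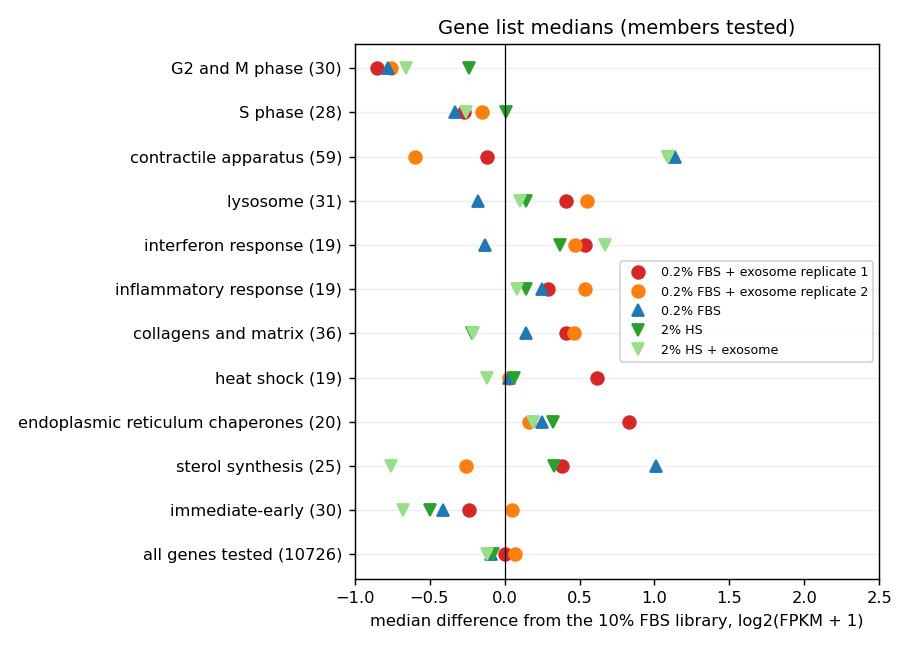
Median difference from the 10% FBS library in log2(FPKM + 1) over the tested members of 11 gene lists and over all genes tested, for each of the other 5 libraries. Circles are replicates 1 and 2 of 0.2% FBS + exosome. Both lie below 0 for G2 and M phase and contractile genes and above 0 for lysosome, interferon and matrix genes, and they part for heat shock, chaperone and sterol genes.

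Matrix genes were mostly higher than in growing cells. Of 36 tested members of the collagen and matrix list 24 were higher and 4 lower in each exosome library, against 42.0% and 31.0% of all genes tested, and none had an adjusted limma p under 0.05. The median was 0.43 (0.41 and 0.46), against 0.14 for 0.2% FBS, −0.22 for 2% HS and −0.21 for 2% HS + exosome. Dcn, the proteoglycan decorin, passed the fold rule with 41.1, 156 and 112 FPKM (mean difference 1.66, SD 0.34, n = 2, limma adjusted p = 0.0967). It was higher still in the 2% HS libraries, at 165 and 182 FPKM, and stood at 81.6 FPKM in 0.2% FBS.

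Col1a1, the main chain of type I collagen, just missed the threshold with differences of 1.00 and 1.00 (59.5, 120 and 120 FPKM). Fn1, fibronectin, was at 856, 1732 and 1238 FPKM, and Postn, the matricellular protein periostin, at 47.3, 107 and 76.1 FPKM. Tnc, tenascin-C, went the other way, at 36.5 FPKM in 10% FBS against 22.5 and 20 FPKM, and Col5a3, a minor collagen chain, at 20.7 FPKM against 12.2 and 12.4 FPKM. Both were also below the growing level in the other 3 libraries.

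The remaining called genes are of mixed function. Arhgap24 is among them, at 3.76 FPKM in growing cells and 8.95 and 9.88 FPKM with exosomes. Prex2, an exchange factor for Rac, was at 0.701 FPKM in growing cells and 4.55 and 4.46 FPKM with exosomes (mean difference 1.69, SD 0.02, n = 2, limma adjusted p = 0.0307), above the other 4 libraries. Tnr, tenascin-R, was at 2.64, 8.51 and 9.2 FPKM (limma adjusted p = 0.032), but also at 9.05 FPKM in 0.2% FBS alone. Slc1a3, a glutamate transporter, was at 2.05, 6.02 and 10.3 FPKM with 7.81 FPKM in 0.2% FBS.

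Angpt4, an angiopoietin, was at 5.04, 22.9 and 11.4 FPKM with 23.3 FPKM in 0.2% FBS, and it had the highest adjusted p of the called higher genes, 0.183 in limma, as did Mgst1, a microsomal glutathione transferase (7.52, 16.9 and 34.8 FPKM). Mrgprf, an orphan receptor, was at 1.55, 6.94 and 5.14 FPKM. Phex, an endopeptidase best known from bone, was at 2.62, 7.07 and 8.36 FPKM. Of the 22 called higher genes 15 had both exosome libraries above the other 4. The call itself placed both above the growing library, so all genes tested are no matching background for this count. Among the 4507 genes higher in each exosome library, as all 22 were, 2986 had both above the other 4. Of the 22 genes 13 were higher in replicate 2 than in replicate 1, near the share of 63.6% over all genes. Angpt4 and C1ra lost the call under both other scalings.

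The replicates parted in several groups, so that a single exosome library would give another picture of the distance to growing cells. Among immediate-early genes, which respond to serum within minutes, Fos was at 113 FPKM in 10% FBS, 8.03 FPKM in replicate 1 and 100 FPKM in replicate 2. Egr1 was at 143, 38.9 and 85.9 FPKM and Junb at 102, 41.9 and 106 FPKM in the same libraries. In 0.2% FBS without exosomes they were at 3.04, 44.7 and 39.9 FPKM. For Fos and Junb replicate 2 was near the growing cells and replicate 1 well below them, while Egr1 in replicate 2 lay between 10% FBS and 0.2% FBS. Id3, a target of BMP signals that restrains myogenic factors, was at 65.9, 37.9 and 123 FPKM. Over the 30 tested immediate-early genes 9 were higher and 11 lower (36.7%) in each, against 42.0% and 31.0% of all genes, with medians of −0.24 and 0.05.

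Heat shock genes showed the opposite order. Hspa1b, an inducible HSP70, was at 2.23 FPKM in growing cells and 30 and 5.39 FPKM in replicates 1 and 2, just missing the threshold in replicate 2 (0.99). Hsph1, a partner of HSP70, was at 34.5, 174 and 33 FPKM. All 19 tested heat shock genes were higher in replicate 1 than in replicate 2, against 36.4% of all genes, with medians of 0.62 and 0.03.

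Replicate 1 was also the higher in all 20 endoplasmic reticulum chaperones (medians 0.83 and 0.16), of which 17 were higher and 0 lower in each, against 42.0% and 31.0% of all genes. Hspa5, the chaperone BiP, was at 276, 675 and 287 FPKM. In sterol synthesis replicate 1 was the higher in 23 of 25 members, again against 36.4% (medians 0.38 and −0.26), and Fdps, a farnesyl diphosphate synthase, was at 93.4, 122 and 66.5 FPKM with 254 FPKM in 0.2% FBS. The median of the sterol genes for 0.2% FBS alone was 1.01.

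Most genes of the amino acid response, which are raised when amino acids run short, stood near or below the growing level. Their mean differences ranged from −0.45 to 0.81, and 1 member was past 0.5 in each library, against 2.71% of all genes. Of 33 tested members 8 were higher in each exosome library and 20 lower, against 42.0% and 31.0% of all genes, with a median of −0.07, against 0.49 for 0.2% FBS, 0.53 for 2% HS and 1.43 for 2% HS + exosome. Asns, asparagine synthetase, was at 62.2, 47.6 and 43.4 FPKM with 126 FPKM in 0.2% FBS, and Atf4, the factor of this response, at 284, 282 and 277 FPKM. In 19 of the 33 both exosome libraries lay below the other 4, against 12.6% of all genes. Among the 3324 genes lower in each exosome library, as 20 of the 33 were, 1353 had both below the other 4. Respiratory chain genes had a median of −0.11 (−0.24 and 0.08) over 33 members. Rpl13a, a reference gene of RT-qPCR, was at 787, 622 and 875 FPKM and Gapdh, a glycolytic enzyme, at 2819, 2774 and 3063 FPKM.

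Markers of other cell types were low. All 8 endothelial markers were below 1 FPKM in the 3 libraries compared, with at most 0.163 FPKM for Tek. Summed levels of 9 leukocyte markers were 6.14 FPKM in 10% FBS and 8.95 and 9.61 FPKM with exosomes, with 6 of 9 below 1 FPKM and 1 at 0. Those of 8 adipocyte markers were 7.17, 7.1 and 10.8 FPKM, with 4 at 0, and those of 12 bone and cartilage markers 16.8, 20.6 and 27.4 FPKM, with 1 at 0. Blood and liver transcripts summed to 6.07, 9.43 and 20.7 FPKM over 11 entries, 4 of them at 0, mostly from the platelet chemokine Ppbp at 4.39, 7.86 and 17 FPKM. The leukocyte sum, 5.36 to 6.62 FPKM in the 3 libraries outside the comparison, was higher in both exosome libraries, as were Ccl2, Ccl7, Ccl8 and most interferon genes against 10% FBS. The part of these markers in the differences was not tested.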

How the data were processed

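The authors extracted RNA, made stranded mRNA libraries and read them as 75 bp single-end reads. Reads were trimmed with cutadapt 1.9.1 and mapped to mm10 with TopHat2 2.1.0, and the deposited table holds FPKM from Cufflinks for each library. The annotation and strand setting are not given in the sources used here. Of 20950 entries, 4500 were at 0 everywhere and 10 with a repeated name were dropped. Values were used as deposited, as log2(FPKM + 1). Counts are not used here, so depth was estimated from 2442 genes with 1 transcript, assuming 200-base fragments, and 74.3% to 77.0% of low values lay within 0.1 of a whole read, where 20% would by even spread.

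A gene was called past 1 or −1 in each exosome library. limma 3.58.1 (R 4.3.3) was fitted to all 6 libraries with a mean-variance trend and 1 mean per condition. On simulated data with 200 changed genes of 10726, it called 210 (4.76% unchanged), and the fold rule called 200 (0% unchanged). All planted changes were larger than 1 in size. Every library, 10% FBS included, was given a spread smoothed from that of the replicates. High recovery was thus built in, and the simulation cannot speak to smaller changes or to the unknown spread between growing cultures. The rule for named genes took the 20 largest differences called in each direction, members of 35 lists (called, or the 2 most abundant) and genes measured by RT-qPCR. Other named genes were chosen after their values were seen. The comparison, lists and members were chosen with earlier results of these data known. Pseudocount, filter, scaling, trend and left-out libraries were varied.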

Additional observations from a re-analysis of the deposited data

How the results depend on the processing

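The count of 22 higher genes became 52 with a pseudocount of 0.1, 44 with values under 1 FPKM raised to 1, and 291 with a log2 threshold of 0.5, which was chosen after seeing the data. Using a single exosome library it ranged from 66 to 100. The 1 lower gene became 24, 23 and 138 under the same settings, 7 with 75th percentile scaling, 4 with median-of-ratios scaling, and 9 to 26 with a single exosome library. The 23 called genes stayed called under all these settings except Angpt4 and C1ra under both scalings. A pseudocount of 0.1, a threshold of 0.5 or a single exosome library cannot lose a call. The calls kept under those settings are therefore no check of the calls. With a minimum mean of 10 FPKM, 17 of 23 were still tested and called. The 6 higher genes in limma became 25 with 75th percentile scaling, 1 with median-of-ratios scaling or without the trend, and 0 with values raised to 1 or with no filter. The 1 lower gene became 11, and 0 in the last 2 settings. The cause was not tested.

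The median of the G2 and M phase list was −0.90 with a pseudocount of 0.1 and −0.91 with values raised to 1. That of the inflammatory list was 0.09 with no filter, where members near 0 enter. The interferon list gave 0.74 with a pseudocount of 0.1, 0.34 with no filter, 0.80 with a minimum of 10 FPKM and 0.47 to 0.54 with a single exosome library. The collagen and matrix list gave 0.38 with no filter, 0.35 and 0.38 under the scalings and 0.41 to 0.46 with a single exosome library. None of these medians changed sign. The scalings moved the median gene by −0.064 and −0.044, and the shares of all genes higher and lower in each library to 32.8% and 41.7%, and to 36% and 38.6%. No paired analysis was possible because growing cells have 1 library. Depth is estimated and holds no interval for a single gene.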
